A study of Gallus gallus with 2 samples.

Results

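The insulin and insulin-like growth factor (IGF) signalling genes were read on a pair of microarrays of chicken ileum, and the members examined were IGF1, INSR, IGF1R, IRS1, IRS2, PIK3R1, AKT1, GSK3A, GSK3B and FOXO3. They were chosen by pathway around IRS2 and GSK3A, which were selected on their ratios between the diets on these same arrays. The values of these genes are therefore a description of the arrays, and no test was made. The annotation named 21 chicken probe sets for 8 of the 10 members, out of 27166 probe sets with a single gene and 37693 chicken probe sets in all. IRS1 and GSK3B had no named probe set, and which of the GSK3 genes the GSK3A probe sets read is uncertain, as described with its values.

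The paddy rice array carried pooled ileal RNA of 3 male White Leghorn layer chicks fed a diet with 650 g/kg paddy rice, and the corn array carried pooled ileal RNA of 3 such chicks fed 650 g/kg corn, which was the control. Both diets were given for 2 wk from 1 wk of age to groups of 9 birds, and the ileum was taken at 3 wk of age. The study chose the pooled birds for ileal MUC2 levels near the group average, and according to its methods the diets were not matched in protein and energy. The pools leave 1 array per diet, so replicate error cannot be estimated and each ratio compares a single pair of pools.

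Insulin and the IGFs bind the receptor tyrosine kinases INSR and IGF1R, which phosphorylate docking proteins of the IRS family. IRS proteins recruit phosphoinositide 3-kinase (PI3K) through its regulatory subunit, and the lipid made by PI3K brings AKT to the membrane. AKT then phosphorylates and inhibits GSK3 and keeps FOXO factors out of the nucleus. In the mammalian liver, transcription of IRS2 is raised in fasting and lowered by insulin. In the intestine, IGF1 from cells of the mesenchyme is known as a growth signal to the crypt epithelium.

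Each probe set is a group of short DNA probes whose brightness the authors condensed to 1 linear MAS5 signal. A ratio is the signal on paddy rice over the signal on corn of the same probe set, and ratios above 1.5 or below 0.67, the thresholds of the methods, are called past a threshold. The level taken as background was the 95th percentile of 689 probe sets that the array does not mark as chicken, 45.1 on paddy rice and 44.1 on corn. This background was set with the values in view. Among the 37693 chicken probe sets, 14.6% were above 1.5 and 15.1% were below 0.67, and these shares depended on signal. The study reported far fewer probe sets past the same thresholds, and its methods state no further filter. Sorted by mean signal into 4 bands of like size, 71.5% of the probe sets in the dimmest band were past a threshold, against 1.16% in the brightest band. A probe set whose mean signal over both arrays reached the median of the chicken probe sets (111) is called clear, and one that reached the 75th percentile (522) is called bright. Ranks of signal run from 1 for the brightest chicken probe set. A signal depends on its probes, so each ratio sets a probe set against the same probe set on the other array. Signals of different probe sets were compared to form ranks and bands, sum markers, and choose the brightest and nearest genes. Such comparisons between probe sets do not give relative RNA amounts.

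The arrays carried the marks of ileum. FABP6, the ileal bile acid-binding protein gene, had signals of 35027 on paddy rice and 31195 on corn, and all 4 ileal enterocyte markers were above background with ratios between 1.02 and 1.34. The 7 general enterocyte markers had ratios between 0.874 and 1.01 and the 6 fibroblast markers between 1.00 and 1.16. The 5 smooth muscle markers had ratios between 0.956 and 1.51, the highest being that of ACTA2 at signals of 74.7 on paddy rice and 49.6 on corn, and summed to 45621 on paddy rice and 46012 on corn. The 4 endothelial markers summed to 2674 on paddy rice and 3017 on corn, and PECAM1 among them had a ratio of 0.595. Of 6 measured pancreas markers, GCG, which enteroendocrine cells also express, and INS were above background on both arrays, and of 4 liver markers ALB and TTR were. The part of cell composition in the ratios below was not tested, and in pooled tissue fewer cells of a type cannot be told apart from less RNA per cell. For beta-actin, the 3' probe set was 1.52 times the 5' one on paddy rice and 1.51 times on corn.

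IRS2, the docking protein gene, had a higher signal on paddy rice by its brightest probe set. Probe set Gga.19009.1.S1_at had a signal of 2799 on paddy rice and 1614 on corn, a ratio of 1.73 and a log2 ratio of 0.79. Its rank among the chicken probe sets was 2292 on paddy rice and 4018 on corn. Among the 9424 bright chicken probe sets, this ratio was the 17th highest. These values chose the gene and carry no test.

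The other probe sets of IRS2 were dimmer. GgaAffx.10780.1.S1_at had a signal of 136 on paddy rice and 104 on corn, a ratio of 1.32, and it was just clear by the definition above. Gga.17116.1.S1_at had a signal of 71.5 on paddy rice and 52.5 on corn, a ratio of 1.36. Both lay on the same side of 1 as the brightest probe set, and neither was past a threshold. GgaAffx.10780.1.A1_at had signals of 16.4 on paddy rice and 28.2 on corn, under background on both arrays, so that its ratio of 0.584 gives no direction. Its identifier differs from that of GgaAffx.10780.1.S1_at in the letter that Affymetrix uses for the orientation of the design.

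The 4 probe sets of IRS2 came under 2 gene identifiers. The brightest carries the identifier that RefSeq gives to IRS2 on chromosome 1, between MYO16 and COL4A1. The other 3 carry an identifier that the RefSeq table used here does not hold, and their name rests on the platform annotation alone. Between the 2 clear probe sets, log2 ratios differed by 0.40. Of 2593 genes with 2 such probe sets, 21.4% had a difference at least as large, and the median difference was 0.19. As IRS2 was selected on its ratio, this share carries no test. The median log2 ratio over all 4 probe sets corresponds to a ratio of 1.34, which is not past 1.5.

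IRS4, the sole other IRS family gene with named probe sets among the genes listed here, had 2 of them with nearly equal ratios. Gga.13569.1.S1_at had signals of 1437 on paddy rice and 1067 on corn, a ratio of 1.35. GgaAffx.5086.1.S1_at had signals of 151 on paddy rice and 113 on corn, a ratio of 1.34. Neither was past 1.5, and with 1 array per diet the error of these ratios cannot be estimated.

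**Figure D1:**
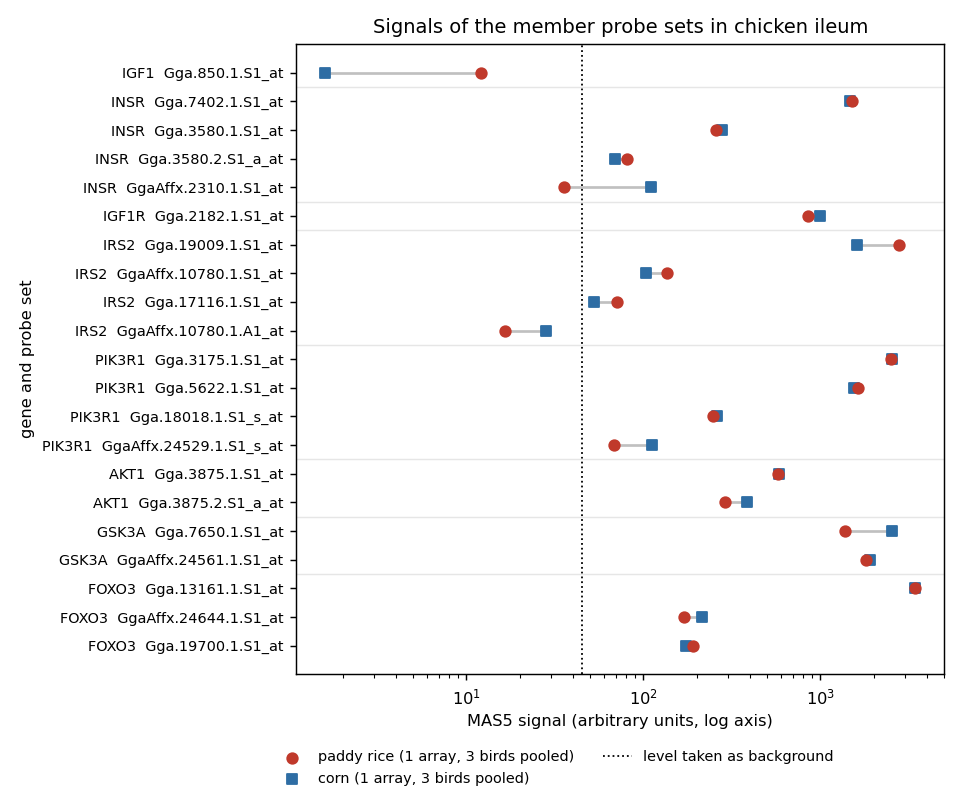
MAS5 signal (log axis, arbitrary units) of the 21 member probe sets, with paddy rice as circles and corn as squares, 1 array of 3 pooled birds each. The dotted line marks the level taken as background (45.1, the paddy rice value). The brightest IRS2 probe set lay at 2799 on paddy rice and 1614 on corn, and only 1 of the 2 GSK3A probe sets showed a wide gap.

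GSK3A, named for the kinase that phosphorylates glycogen synthase and beta-catenin, was lower on paddy rice on 1 of its 2 probe sets. Gga.7650.1.S1_at had a signal of 1388 on paddy rice and 2531 on corn, a ratio of 0.549 and a log2 ratio of -0.87. Its rank was 4592 on paddy rice and 2551 on corn, and its ratio was the 15th lowest among the 9424 bright probe sets. GgaAffx.24561.1.S1_at had a signal of 1811 on paddy rice and 1916 on corn, a ratio of 0.946. Its rank was 3593 on paddy rice and 3402 on corn.

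The probe sets of GSK3A thus disagreed at high signal. Their mean signals were at percentiles 90.8 and 90.7 of the chicken probe sets, and neither is marked as shared between transcripts. Their log2 ratios differed by 0.79, while the median difference was 0.12 over the 1289 genes with 2 bright probe sets. Of those 1289 genes, 5 (0.388%), GSK3A included, had a difference as large. Among the 2593 genes with 2 clear probe sets, the set used for IRS2, it was 83 (3.20%). GSK3A was selected on its ratio between the diets, which favours a wide difference, so these shares carry no test. The SD of log2 ratios between the bright probe sets of a gene was 0.16 over 1663 genes with several. The median log2 ratio over both GSK3A probe sets corresponds to a ratio of 0.720, which is not past 0.67. The plot of probe set agreement shows GSK3A in the tail of these differences and PIK3R1, with 0.08, near their middle. Whether the probe sets read different transcripts was not tested.

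**Figure D2:**
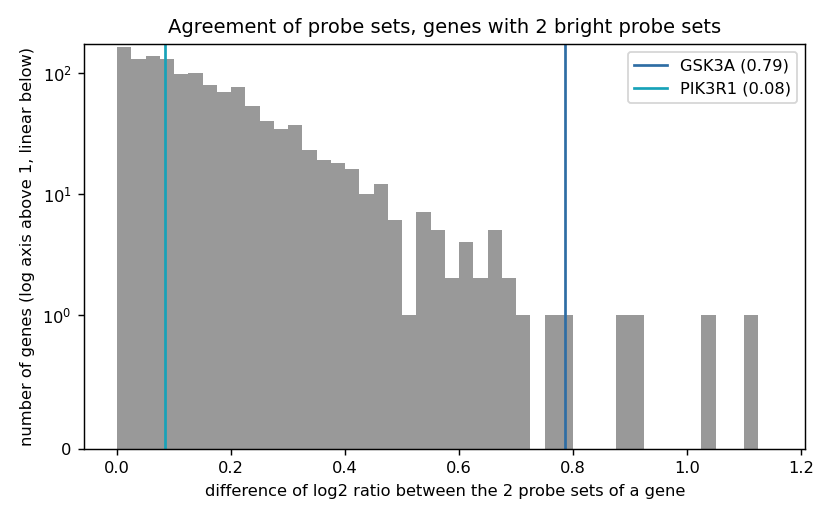
Difference of log2 ratio (paddy rice over corn) between the probe sets of a gene, for the 1289 genes with 2 bright probe sets (mean signal of 522 or more). Bars count genes (log axis above 1), and the lines mark GSK3A (0.79) and PIK3R1 (0.08). GSK3A was selected on its ratio between the diets.

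The annotation and RefSeq give the symbol GSK3A to a gene on chromosome 1. COX17 and POPDC2 lie close to it there, 2 and 3 places further on in the order of protein-coding genes. They were picked from its neighbours, and the genes directly next to it are not given. In the human genome the genes named COX17 and POPDC2 lie close to GSK3B. The symbol is kept here as the tables give it, and no probe set was named GSK3B. The values given for GSK3A may therefore belong to the chicken counterpart of human GSK3B, which was not tested.

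The receptors lay between the thresholds on every clear probe set. INSR, the insulin receptor gene, had a signal of 1515 on paddy rice and 1471 on corn on Gga.7402.1.S1_at, a ratio of 1.03. Gga.3580.1.S1_at of INSR had 257 on paddy rice and 277 on corn, a ratio of 0.929, so that these 2 probe sets differed by 0.15 on the log2 scale. On the dim probe sets of INSR the picture was wider. Gga.3580.2.S1_a_at had 81.1 on paddy rice and 68.9 on corn, a ratio of 1.18. GgaAffx.2310.1.S1_at had 35.6 on paddy rice, under background, and 111 on corn. Set against the background level, with its corn signal taken as exact, this probe set was at least 2.45-fold lower on paddy rice. The 3 other probe sets of INSR lay between 0.929 and 1.18. In the band of signal that holds GgaAffx.2310.1.S1_at, 37.1% of all chicken probe sets were past a threshold.

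IGF1R, the receptor of both IGFs, had 1 probe set with a signal of 851 on paddy rice and 990 on corn, a ratio of 0.859. Its rank was 6803 on paddy rice and 6097 on corn. Among the brightest probe sets of the members other than IRS2, GSK3A and IGF1, this ratio was the farthest from 1. IGF1 itself, the secreted ligand, had a single probe set with signals of 12.1 on paddy rice and 1.60 on corn. Both were under background, so its ratio of 7.57 gives no size of a change.

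PIK3R1, which encodes the main regulatory subunit of PI3K, had close signals on both arrays by its 3 clear probe sets. Gga.3175.1.S1_at had 2521 on paddy rice and 2530 on corn, a ratio of 0.996, and Gga.5622.1.S1_at had 1635 on paddy rice and 1548 on corn, a ratio of 1.06. Gga.18018.1.S1_s_at, marked as shared between transcripts, had 247 on paddy rice and 262 on corn, a ratio of 0.942. The dimmest of the 4, GgaAffx.24529.1.S1_s_at, is also marked as shared and had 68.2 on paddy rice and 112 on corn, a ratio of 0.608.

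AKT1, the kinase gene below PI3K, had 579 on paddy rice and 583 on corn by Gga.3875.1.S1_at, a ratio of 0.992. Its other probe set, Gga.3875.2.S1_a_at, had 291 on paddy rice and 383 on corn, a ratio of 0.760. FOXO3, a transcription factor that AKT restrains, had 3424 on paddy rice and 3430 on corn by Gga.13161.1.S1_at, a ratio of 0.998. Its dimmer probe sets lay on opposite sides of 1. GgaAffx.24644.1.S1_at had 170 on paddy rice and 214 on corn, a ratio of 0.796, and Gga.19700.1.S1_at had 190 on paddy rice and 173 on corn, a ratio of 1.10.

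Counted by probe set, 2 of the 21 were above 1.5 and 4 were below 0.67, beside 14.6% and 15.1% of all chicken probe sets. Of the 6 past a threshold, 4 were not clear. Of the 15 clear ones, those past a threshold were the brightest of IRS2 and the brightest of GSK3A. Beside these, 1.16% of all chicken probe sets in the brightest band of signal and 9.26% in the band next to it were past a threshold. Counted by gene on the brightest probe set, IRS2 and IGF1 were above 1.5 and GSK3A was below 0.67, beside 8.27% and 8.57% of 13008 named genes. Since IRS2 and GSK3A were selected on this contrast, nothing is read from these counts. The median log2 ratio of the brightest probe sets of INSR, IGF1R, PIK3R1, AKT1 and FOXO3 was -0.0056, beside -0.0031 over all 9240 named genes with a clear brightest probe set. The plot of ratio against signal places the brightest probe sets of these 5 genes near 0, and shows the widest scatter among dim probe sets.

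**Figure D3:**
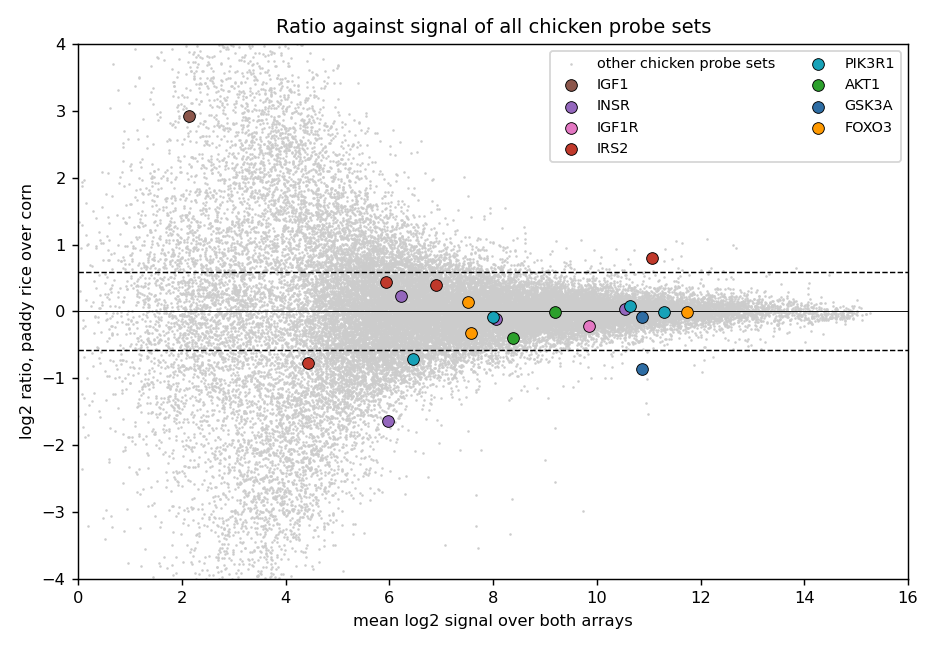
Log2 ratio of paddy rice over corn against the mean log2 signal of both arrays, with the 21 member probe sets coloured by gene over all chicken probe sets in grey. The dashed lines are the ratios 1.5 and 0.67, and 326 probe sets lie outside the axes. IRS2 at 0.79 and GSK3A at -0.87, both selected on their ratios, stand off the narrow cloud at high signal. The other members past a threshold lie in the wide cloud at low signal.

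The genes nearest to IRS2 in mean log2 signal and log2 ratio, among 5781 other named genes with a bright probe set, were IFIT5, TMEM230, GSTM2 and REG4. IFIT5, an interferon-induced gene, had signals of 3260 on paddy rice and 1935 on corn, a ratio of 1.68. GSTM2, a glutathione transferase gene, had 2317 on paddy rice and 1551 on corn, a ratio of 1.49. TMEM230 had a ratio of 1.46 and the secreted lectin gene REG4 a ratio of 1.91. The distances from IRS2 lay between 0.24 and 0.29 on the log2 scale. For GSK3A the nearest genes were APOA4, MT3, FDX1 and BRD1. APOA4, an apolipoprotein gene, had 1412 on paddy rice and 2860 on corn, a ratio of 0.494, on a probe set marked as shared between transcripts. MT3, a metallothionein gene, had 1621 on paddy rice and 2474 on corn, a ratio of 0.655. The ferredoxin gene FDX1 had a ratio of 0.678. BRD1 was near GSK3A by its brightest probe set, marked as shared between transcripts, at 0.674, while the median log2 ratio of its 6 probe sets corresponds to a ratio of 1.11. Over the 2 probe sets of each gene, the median log2 ratio corresponds to 1.44 for IFIT5, 2.05 for TMEM230 and 0.436 for APOA4. With 2 arrays, likeness means a like signal and a like ratio only.

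A wider list of 139 insulin and IGF signalling genes, members left out, gave 116 genes with named probe sets. IRS2 and GSK3A, which were selected on their ratios, are thus not part of this list. On the brightest probe set, 4 of the 116 were above 1.5 and 3 were below 0.67, beside 8.27% and 8.57% of all named genes. None of these 7 was clear. Of the 98 clear genes, none was past a threshold, beside 1.87% above 1.5 and 1.71% below 0.67 of the 9240 clear named genes. Of the 5782 bright named genes, 0.623% were above 1.5 and 0.329% below 0.67. The ratios of the 98 genes lay between 0.683 for CBL, a ubiquitin ligase gene, and 1.44 for SREBF2, a sterol-responsive transcription factor gene. Ratios were above 1 for 61 of the 98 and below 1 for 37, beside 4558 and 4681 of the 9240 clear named genes. The median log2 ratio of the 98 was 0.04, beside -0.0031 for all clear named genes. The counts of ratios above or below 1 given by role further down are small, and nothing is read from them.

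The 7 genes past a threshold at low signal were named after their values were seen. FRS2, an adaptor gene of growth factor receptors, and SREBF1 were under background on both arrays. IGF2, the second IGF ligand gene, had 59.1 on paddy rice and 23.4 on corn, at least 1.34-fold higher on paddy rice against the background level. TRIM63, a muscle ubiquitin ligase gene, was at least 1.37-fold higher in the same way. CITED2, a transcriptional coregulator gene, was at least 1.44-fold lower, and IGFALS, the partner of circulating IGF complexes, at least 1.75-fold lower. These bounds take the signal above background as exact. SGK2, a kinase gene related to AKT, had 48.1 on paddy rice and 76.6 on corn, a ratio of 0.628. Of all chicken probe sets, 71.5% in the dimmest band of signal and 37.1% in the band next to it were past a threshold.

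By role, the ligand genes INS and IGF2 were not clear. The 10 genes listed as binding proteins included IGF2BP1, IGF2BP2 and IGF2BP3, whose products bind mRNA and not the IGF ligands. Of the 10 genes, 7 were clear, with ratios between 0.810 for IGFBP4 and 1.08 for IGFBP1. IGFBP7, the brightest of them, had 15318 on paddy rice and 16032 on corn, a ratio of 0.955. IGF2R, known in mammals as a scavenger receptor of IGF2, had 1889 on paddy rice and 1934 on corn, a ratio of 0.976. Among the adaptors the brightest was GRB2, the link to Ras, with 5526 on paddy rice and 5404 on corn and a ratio of 1.02. The 9 measured genes of receptor inhibitors had ratios between 0.947 for SOCS6 and 1.28 for SOCS1, 7 of them above 1. PTPRF, a receptor phosphatase gene and the brightest of these, had 10357 on paddy rice and 10324 on corn, a ratio of 1.00.

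The clear genes of the enzymes below the docking proteins lay between the thresholds as well, on their brightest probe sets. Of 9 clear PI3K genes, 6 had ratios above 1. PIK3C2A, the brightest, had 1874 on paddy rice and 1669 on corn, a ratio of 1.12. The 3 clear phosphoinositide phosphatase genes lay between 1.03 and 1.14, with 1756 on paddy rice and 1678 on corn for INPP4A. Of 6 genes of AKT control, PPP2CA, a phosphatase catalytic subunit gene, was the brightest with a ratio of 1.01, and the regulatory subunit gene PPP2R5C had the highest ratio, 1.36. In the mTOR branch, which sets protein synthesis, 11 of 18 genes had ratios above 1, and RPS6, a ribosomal protein gene, had 28897 on paddy rice and 28036 on corn, a ratio of 1.03. In the Ras and MAPK branch 5 of 8 were above 1, and MAP2K1 had a ratio of 1.05. Of the serum-glucocorticoid kinase genes, SGK1 had 11322 on paddy rice and 10211 on corn, a ratio of 1.11. Of the genes of glucose uptake, TBC1D1, a regulator of glucose transporter traffic, was the brightest with a ratio of 1.06 on Gga.19251.1.S1_at, but its clear probe sets disagreed. Gga.10725.1.S1_at had 414 on paddy rice and 225 on corn, a ratio of 1.84, and GgaAffx.25256.1.S1_at had 239 on paddy rice and 92.7 on corn, a ratio of 2.58, while GgaAffx.24381.1.S1_at had a ratio of 1.03. Over the whole wider list, 168 probe sets were clear, and 2 of them, both of TBC1D1, were above 1.5 and 3 were below 0.67. Those 3 were of AXIN1, CBLB and PIK3CD, which lay between the thresholds on their brightest probe sets. Of all chicken probe sets, 1.16% in the brightest band of signal and 9.26% in the band next to it were past a threshold. Nothing is read from this count.

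FOXO factors and FOXO targets included 11 clear genes, 8 with ratios above 1. FOXO1 had 1631 on paddy rice and 1564 on corn, a ratio of 1.04, and FOXO4 had a ratio of 1.02, near that of FOXO3. PCK1, a gluconeogenic enzyme gene, had 7778 on paddy rice and 7660 on corn, a ratio of 1.02. PDK4, an inhibitor of pyruvate dehydrogenase, had the highest ratio of the clear genes of the role, with 6106 on paddy rice and 4371 on corn, a ratio of 1.40. Among regulators of IRS2 transcription, CREM was the brightest with a ratio of 1.05. SREBF2 was listed in the same role and had its highest clear ratio, 1.44, with 1621 on paddy rice and 1122 on corn. Of the 5 clear genes of the role, 2 had ratios above 1 and 3 below. The 8 measured genes listed as substrates and partners of GSK3 included the phosphatase subunit genes PPP1R3B, PPP1R3C and PPP1R3D. Of these 8 genes, 5 had ratios below 1. Their median log2 ratio was -0.18, beside -0.0031 over all clear named genes, and nothing is read from it. CTNNB1, the beta-catenin gene, had 20386 on paddy rice and 19509 on corn, a ratio of 1.04, and EIF2B5, a translation initiation factor gene, had the lowest ratio of the role, 0.798.

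**Figure D4:**
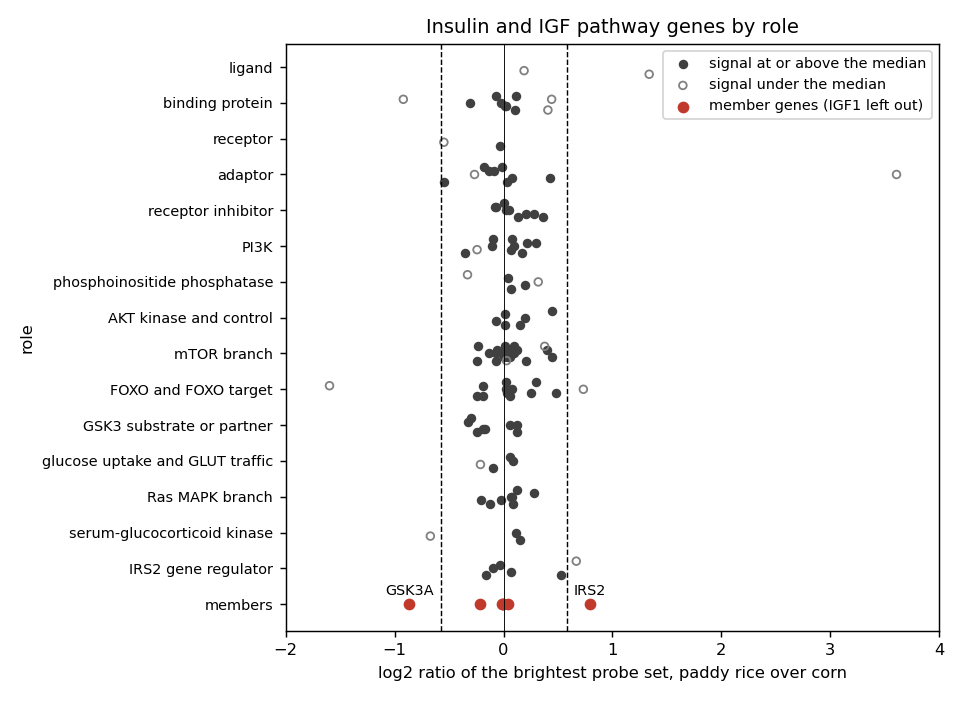
Log2 ratio of the brightest probe set (paddy rice over corn) of the 116 measured genes of the wider list, 1 row for each role, with filled points for clear genes and open points for the others. Red points are the members other than IGF1, and dashed lines are the ratios 1.5 and 0.67. All 98 filled points lie between the dashed lines. IRS2 and GSK3A lie outside them, but both were selected on their ratios and are not part of the wider list.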

How the data were processed

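Ileal RNA of 3 birds per diet was hybridised to the GeneChip Chicken Genome Array. The authors normalized the raw data with the MAS5 algorithm, which the submitters' processing notes also name. Their deposited intensity values are linear, 1 for each probe set, and come without detection calls. Both arrays had the same trimmed mean of 500.1 (2% left off either end), and no further scaling was applied.

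Probe sets were named from the platform annotation, and Entrez identifiers were looked up in the RefSeq table of assembly GRCg7b for current symbols, which held 26851 of 27166 chicken probe sets with 1 gene. The 177 with several genes were not named. Its gene order along chromosomes served to name neighbours, and no coordinates are given. A gene's value is that of its brightest probe set, the one with the highest mean log2 signal. The members, the wider list and the rules were chosen with earlier results of these data known. Every member probe set was named, as were pathway genes past a threshold at or above the median signal, the brightest gene of each role, and the 4 genes nearest to IRS2 and to GSK3A. Other pathway genes in the text were relatives of members or were named after their values were seen. No test was possible with 1 array per diet, and the number of arrays limits the precision.

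The alternatives were filters at the median or 75th percentile of signal, median centring, quantile normalization, loess centring (fraction 0.3), 34.5 (the 25th percentile of signals) added as an offset, leaving out shared probe sets, medians across the probe sets of a gene (all, or those reaching the median signal), thresholds of 2 and 0.5, and platform symbols. Leaving out probe sets under background was added after seeing the data. Python 3.11.15, numpy 2.4.6, pandas 2.3.3, statsmodels 0.14.6, scipy 1.17.1 and matplotlib 3.10.9 were used.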

Additional observations from a re-analysis of the deposited data

How the results depend on the processing

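The direction of IRS2 and of GSK3A was the same under all 10 alternatives that gave a ratio. With 8 of them each ratio moved by less than 0.16 on the log2 scale, the SD between probe sets of a gene. Of these 8, the low-signal filters, platform symbols and leaving out shared probe sets kept the same brightest probe set and could not move either ratio. The centrings, quantile normalization and the offset started from the same pair of signals. The exceptions were the medians over probe sets. IRS2 was at 1.34 over all its probe sets, no longer past 1.5, and at 1.51 over those reaching the median signal. GSK3A was at 0.720 over its probe sets in both cases, no longer past 0.67. The median ratio of the other members lay between 0.973 and 0.998 under all 10. IGF1 was counted in this median, although its ratio gives no size of a change. It dropped out with either low-signal filter and with the median over probe sets reaching the median signal. The ratio of IGF1 was 1.29 with the offset added. Of the member probe sets, 6 were past a threshold without a filter, 2 with either low-signal filter, 3 with the offset and 2 at thresholds of 2 and 0.5. The 2 at thresholds of 2 and 0.5 were that of IGF1 and the dimmest of INSR. Of the members, 3 were past a threshold on the brightest probe set and 1 with either median over probe sets or at thresholds of 2 and 0.5. That 1 was IRS2 with the median over probe sets reaching the median signal. In the other cases it was IGF1, which was under background on both arrays. Of the wider list, 7 genes were past a threshold, 0 with either low-signal filter or with the median over probe sets reaching the median signal, 3 with the offset or at thresholds of 2 and 0.5, 9 without shared probe sets and 10 with the median over all probe sets. The share of all chicken probe sets past a threshold is not given for each alternative. That share itself depends on signal, from 71.5% in the dimmest band to 1.16% in the brightest band. Nothing is therefore read from how these counts of members and wider-list genes change. No paired analysis was possible because there is 1 array per diet. Signals near background limit IGF1, IGF2 and the dim probe sets of IRS2 and INSR.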

Other observations

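Pathway genes with several probe sets differed in how well these agreed, and the genes named here were picked after their values were seen. AXIN1, which encodes a scaffold that holds GSK3 next to beta-catenin, had 3 bright probe sets, all with lower signals on paddy rice. Gga.464.1.S1_at had 998 on paddy rice and 1179 on corn, a ratio of 0.846, Gga.18866.1.S1_at had 695 on paddy rice and 994 on corn, a ratio of 0.700, and GgaAffx.20094.1.S1_s_at had 640 on paddy rice and 802 on corn, a ratio of 0.798. None of these 3 was past 0.67. Of the dimmer AXIN1 probe sets, Gga.464.2.S1_s_at had a ratio of 0.605 and Gga.464.2.S1_a_at a ratio of 1.16, and both are marked as shared between transcripts. AXIN2, its relative, had 989 on paddy rice and 1127 on corn, a ratio of 0.878.

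The sense-named probe sets of IGF2 were both above background on paddy rice and under it on corn. Gga.10702.1.S1_at had 59.1 on paddy rice and 23.4 on corn, and Gga.8511.1.S1_at had 52.7 on paddy rice and 24.6 on corn. Against the background level, and with the paddy rice signals taken as exact, they were at least 1.34-fold and 1.19-fold higher on paddy rice.

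The other 4 genes whose 2 bright probe sets disagreed as widely as those of GSK3A were IRAK2, MPP1, WWC3 and CRAMP1. IRAK2, a kinase gene of Toll-like receptor signalling, had ratios of 1.08 and 0.499, a difference of 1.12 on the log2 scale. MPP1 had ratios of 1.27 and 0.620, WWC3 of 0.845 and 1.59, and CRAMP1 of 1.38 and 0.744.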
